A study of Mus musculus with 12 samples.

Results

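The genes described here encode the proteasome, the protease that degrades ubiquitin-tagged proteins, together with its activators and assembly factors. They were chosen as every row of the count table whose gene symbol begins with Psma, Psmb, Psmc, Psmd, Psme, Psmf or Psmg followed by a number. The pattern took 47 of the 12752 genes in the table. One of them, Psmc3ip, is a meiotic recombination factor that carries the name only, which leaves 46 proteasome genes. These fall into 14 genes of the constitutive 20S core, 17 of the 19S regulator, 5 immunoproteasome genes, 7 assembly chaperones, and a set of 3 that holds the activators Psme3 and Psme4 and the inhibitor Psmf1. All 47 passed the filter on low counts, which left 12751 of the 12752 genes. The testis core subunit Psma8, the thymus subunit Psmb11 and Psme2b were not analysed here.

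The study induced Dux, the mouse counterpart of the transcription factor linked to facioscapulohumeral muscular dystrophy, in the tibialis anterior, a limb muscle, of male C57BL/6 mice. Vectors were adeno-associated viruses (AAV) injected into the muscle at 8 weeks of age, with the empty vector in one limb and AAV:Dux in the opposite one, and every muscle also received AAV:TET. The labels name no promoter for these vectors. DUX_DOX muscles received AAV:Dux and, after 7 days on standard chow, chow with doxycycline at 600 mg/kg, while EV_DOX muscles received the empty vector and the same chow. DUX and EV muscles received these vectors and stayed on normal chow. Either chow was then given for 2 or 7 days, and which of these the libraries stand for is not stated. Each group has 3 libraries of whole muscle RNA, 12 in all, with 11880593 to 13811999 counts per library. Since the labels tie no library to an animal, p-values measure the spread between these libraries, which may be technical.

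Proteins tagged with ubiquitin are bound by the 19S regulator, unfolded by its ring of ATPases and cut inside the 20S core. The core is a stack of rings of alpha subunits, which gate the entrance, and beta subunits, of which Psmb5, Psmb6 and Psmb7 carry the proteolytic sites. Interferon-exposed cells and immune cells make Psmb8, Psmb9 and Psmb10, which take the places of those 3 subunits. In skeletal muscle the proteasome degrades much of the myofibrillar protein lost during atrophy.

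Libraries were checked before the proteasome genes were read. Tmem92, a known Dux target, had 4832 counts over the DUX_DOX libraries, against 2 in EV_DOX, 8 in DUX and 2 in EV. Markers of muscle fibres summed to 111200 to 125800 CPM (counts scaled to library size with TMM factors) in DUX_DOX and 135300 to 144400 CPM in EV_DOX. Of these 8 markers, 1 was lower and 0 were higher at an adjusted p under 0.05, against 10.3% and 14.9% of all genes. Among 6 endothelial markers 1 was lower and 0 were higher, and none of 5 fibro-adipogenic markers was called. Of 18 macrophage and monocyte markers, 17 were higher in DUX_DOX than in EV_DOX at an adjusted p under 0.05, against 14.9% of all genes. Their summed level was 327.5 to 482 CPM in DUX_DOX, against 126 to 184 CPM in EV_DOX, 196 to 219 CPM in DUX and 136.5 to 208 CPM in EV, and none was at 0 in any library. None of 9 T, NK and B cell markers is in the table. In whole muscle, fewer cells of a type and less RNA per cell cannot be told apart. DUX_DOX 2 had the lowest value of its group for 38 of 46 genes, EV_DOX 1 for 35 and EV 1 for 33. DUX_DOX 3, which had the highest value of its group for 32 genes, also had the highest macrophage sum. The other groups differed from this. EV_DOX 3, highest of its group for 30 genes, had the lowest EV_DOX macrophage sum, and DUX 2, highest for 20, the lowest DUX sum. EV 2, highest for 24, lay between the other EV sums. The part of macrophage or fibre content in the differences below was not tested.

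Most proteasome genes differed little between DUX_DOX and EV_DOX muscle, and 1 gene, Psmd11 of the lid, stood at about 2.06 times its EV_DOX level. In all, 5 of the 46 genes were higher (Psmd11, Psmd8, Psmd5, Psmd14 and Psma1) and 1 was lower (Psme4) at an adjusted p under 0.05 in edgeR's quasi-likelihood test. The higher genes were 10.9% of the 46, against 14.9% of all 12751 genes tested, and the lower gene was 2.17%, against 10.3% of all genes. The median log2 fold change was 0.08 over the 46 genes and -0.01 over all genes. The 46 genes also had medians above 0 without induced Dux, 0.09 in EV_DOX against EV and 0.12 in DUX against EV. A log2 fold change between -0.25 and 0.25 was seen in 78.3% of the 46 and in 51.5% of all genes. Only Psmd11 lay beyond 1.5-fold in either direction, 2.17% of the 46, against 16.6% of all genes. Every DUX_DOX library was above every EV_DOX library for 9 genes (19.6%, against 21.4% of all genes) and below for 1 gene (2.17%, against 17.3%). Of the 40 genes that were not called, 35 had a 95% interval that lay within 1.5-fold of no change, and the 5 with wider intervals were Psmb8, Psmb9, Psmb10, Psme1 and Psmg3. Without both empty vector libraries numbered 1, the counts were 2 higher and 0 lower, a choice made after seeing the data. All genes then had 1871 higher and 1324 lower.

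**Figure D1:**
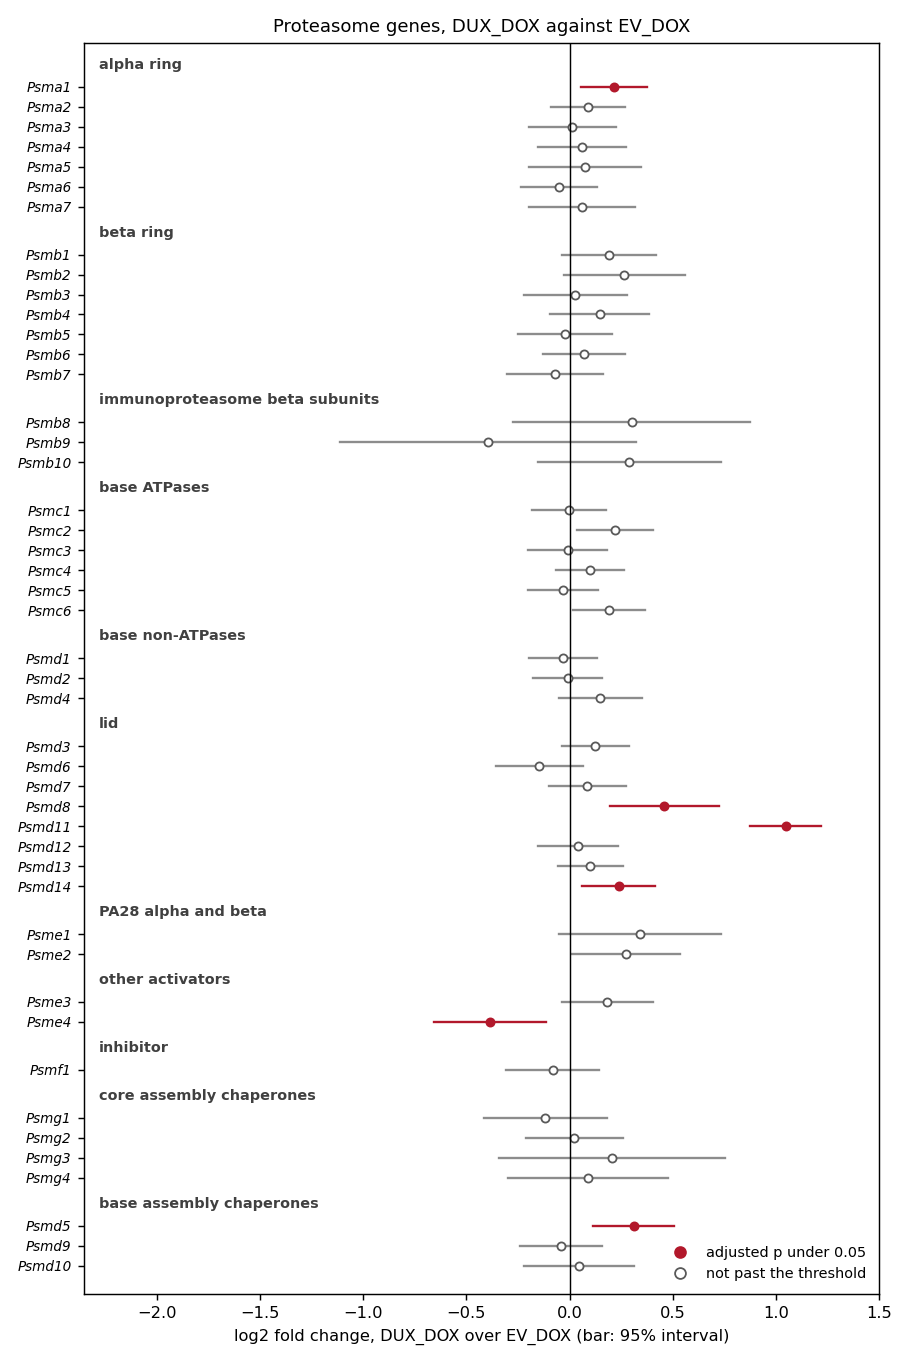
Log2 fold change of each of the 46 proteasome genes in DUX_DOX over EV_DOX (x axis), grouped by role down the page; points are the fitted values, bars the 95% intervals, and filled red points have an adjusted p under 0.05. Psmd11 stands at 1.05, Psme4 at -0.39 and most others lie between -0.25 and 0.25.

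The lid, the part of the 19S regulator that removes ubiquitin from substrates, held 3 of the 5 higher genes. These were 3 of its 8 genes, against 14.9% of all genes, and only Psmd11 kept its call under every alternative. Psmd11, called Rpn6 in yeast, is a lid subunit that clamps the regulator to the core, and raised levels of it increase proteasome activity in human embryonic stem cells. Its gene lies at chr11:80428615-80473248 on the plus strand of GRCm38. Psmd11 had 187, 200.4 and 188 CPM in DUX_DOX, against 87.3, 92.2 and 99.1 CPM in EV_DOX. In the groups on normal chow it had 96.7, 102.5 and 88.1 CPM in DUX and 89.0, 95.2 and 88.5 CPM in EV. The DUX_DOX libraries lay far above the other 9, which overlapped one another. The log2 fold change over EV_DOX was 1.05 ± 0.08 (SE, adjusted p = 4.91e-07), with a 95% interval of 0.87 to 1.22. Psmd11 ranked 77 by p among all genes tested. It was called under all 20 alternatives, with log2 fold changes of 1.00 to 1.10.

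Scaled by transcript length, Psmd11 mRNA was low beside the other regulator genes in 3 of the 4 groups. Its level per kilobase was 104%, 126% and 102% of the median of the 16 other regulator genes in the DUX_DOX libraries. In EV_DOX it was 54.7%, 53.0% and 58.2% of that median, in DUX 53.8% to 61.7% and in EV 51.7% to 59.5%. The other 7 lid genes together summed to 753 ± 56 CPM in DUX_DOX and 674 ± 42 CPM in EV_DOX (SD, n = 3 each), and these ranges of 695 to 806 and 629.8 to 713 CPM overlapped.

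The promoter of Psmd11 is shown because it is the gene that changed most. It is taken from RefSeq (GRCm38.p6, chr11:80428365-80428664, plus strand), from 250 bases before to 50 after the start, and holds none of the motifs searched.
Psmd11: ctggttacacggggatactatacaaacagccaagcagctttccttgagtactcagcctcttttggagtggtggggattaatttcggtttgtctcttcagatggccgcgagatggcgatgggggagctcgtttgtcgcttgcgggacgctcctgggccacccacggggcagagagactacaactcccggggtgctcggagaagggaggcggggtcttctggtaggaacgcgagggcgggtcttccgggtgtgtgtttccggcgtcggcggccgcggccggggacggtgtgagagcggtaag

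Psmd8, the Rpn12 subunit of the lid, had 200.4, 179 and 229 CPM in DUX_DOX, against 153, 138 and 152 CPM in EV_DOX. In DUX it had 157, 162.5 and 131 CPM and in EV 129, 161.5 and 176 CPM. All 3 DUX_DOX libraries were above all others. The log2 fold change over EV_DOX was 0.46 ± 0.12 (adjusted p = 0.0148). Leaving out DUX_DOX 3 or EV_DOX 2 ended the call (adjusted p = 0.0758 and 0.0689). The gene lies at chr7:29174188-29180701 on the minus strand.

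Psmd14, the metalloprotease that cuts ubiquitin chains off substrates at the lid, had 55.7, 53.6 and 61.1 CPM in DUX_DOX, against 45.6, 48.2 and 50.9 CPM in EV_DOX. In DUX it had 45.2, 45.2 and 42.4 CPM and in EV 40.9, 43.5 and 47.7 CPM. Its log2 fold change over EV_DOX was 0.24 ± 0.08 (adjusted p = 0.0488). The DUX_DOX libraries were the highest 3 of the 12. The call was lost on leaving out any single library other than EV 1 or EV 3, with adjusted p of 0.0527 to 0.177. It held under 3 of the 20 alternatives, which include the fit with no filter, where no count of calls changed. The gene lies at chr2:61711694-61800376 on the plus strand. The other 5 lid genes, Psmd3, Psmd6, Psmd7, Psmd12 and Psmd13, had log2 fold changes between -0.15 and 0.13 and were not called.

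The base of the regulator, which binds and unfolds substrates, had no gene past the threshold. The 6 ATPases Psmc1 to Psmc6 lay between -0.03 and 0.22 on the log2 scale. Psmc2 came closest, with 118, 110.2 and 121.5 CPM in DUX_DOX and 93.2, 105.0 and 103 CPM in EV_DOX (log2 fold change 0.22 ± 0.09, adjusted p = 0.0783). The scaffold subunits Psmd1 and Psmd2 and the ubiquitin receptor Psmd4 lay between -0.03 and 0.15.

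In the core, 1 of 14 genes was called. Psma1, an alpha ring subunit at chr7:114264606-114276118 on the minus strand, had 67.6, 62.0 and 70.5 CPM in DUX_DOX, against 54.2, 58.7 and 59.5 CPM in EV_DOX. It had 55.4, 57.3 and 58.4 CPM in DUX and 54.9, 60.0 and 57.3 CPM in EV. The log2 fold change over EV_DOX was 0.22 ± 0.08 (adjusted p = 0.0492). The groups did not overlap. The call was lost on leaving out any single library other than DUX_DOX 2 or EV 2, with adjusted p of 0.0548 to 0.162. It held under 3 of the 20 alternatives, which include the fit with no filter, where no count of calls changed. The other 6 alpha subunits lay between -0.05 and 0.09, and the 7 constitutive beta subunits between -0.07 and 0.26.

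None of the catalytic subunits of the constitutive core was called, and their 95% intervals lay within 1.5-fold of no change. Psmb5, the chymotrypsin-like subunit, had 38.9, 33.5 and 38.6 CPM in DUX_DOX and 34.3, 37.4 and 41.0 CPM in EV_DOX (95% interval of the log2 fold change, -0.25 to 0.21). It had 38.1, 34.2 and 36.9 CPM in DUX and 28.6, 37.1 and 30.5 CPM in EV. Psmb6, the caspase-like subunit, had 115, 97.4 and 123 CPM in DUX_DOX and 100.4, 106 and 113 CPM in EV_DOX (-0.13 to 0.27). It had 108, 111 and 102 CPM in DUX and 87.5, 95.1 and 100.4 CPM in EV, so DUX lay above EV. Psmb7, the trypsin-like subunit, had 163, 138 and 162 CPM in DUX_DOX and 148, 155 and 183 CPM in EV_DOX (-0.30 to 0.16). In DUX it had 169, 164 and 165 CPM and in EV 127, 165.5 and 155 CPM. The DUX_DOX and EV_DOX libraries overlapped for all 3 subunits.

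None of the 5 immunoproteasome genes was called between DUX_DOX and EV_DOX, and the 3 beta subunits among them were read at low levels. Psmb8 had 6.86, 8.37 and 7.27 CPM in DUX_DOX and 6.35, 4.49 and 7.43 CPM in EV_DOX (log2 fold change 0.30, 95% interval -0.28 to 0.88). Psmb9 had 2.21, 1.86 and 3.63 CPM in DUX_DOX and 3.94, 2.63 and 3.52 CPM in EV_DOX (-0.40, -1.11 to 0.32). Psmb10 had 12.0, 7.65 and 10.1 CPM in DUX_DOX and 8.54, 7.36 and 8.45 CPM in EV_DOX (0.29, -0.15 to 0.73). For all 3 the groups overlapped and the intervals left room for changes beyond 1.5-fold. Psmb9 had 23 to 74 counts per library. Its exons share 5.79% of their bases with Tap1 on the opposite strand, so reads could be shared.

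On normal chow, Psmb8 had 10.4, 9.39 and 4.63 CPM in DUX and 4.78, 5.45 and 3.30 CPM in EV. Psmb9 had 5.85, 5.39 and 3.14 CPM in DUX and 1.80, 3.93 and 3.76 CPM in EV. Psmb10 had 12.5, 13.9 and 8.67 CPM in DUX and 7.76, 11.1 and 7.60 CPM in EV. DUX 3 was the lowest DUX library for each of these subunits.

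Psme1 and Psme2 form PA28, the cap that interferon induces. Psme1 had 45.6, 47.8 and 49.1 CPM in DUX_DOX and 27.5, 40.0 and 44.9 CPM in EV_DOX (log2 fold change 0.34 ± 0.18, adjusted p = 0.188). It had 52.7, 54.1 and 47.5 CPM in DUX and 25.2, 40.3 and 23.9 CPM in EV. All DUX_DOX values lay above the EV_DOX values, the nearest pair being 45.6 and 44.9 CPM. Psme2 had 20.1, 16.9 and 21.3 CPM in DUX_DOX and 15.0, 14.9 and 18.5 CPM in EV_DOX (0.27 ± 0.12, adjusted p = 0.118), with overlap. It had 19.2, 19.9 and 18.9 CPM in DUX and 13.8, 17.0 and 17.1 CPM in EV. Macrophages carry immunoproteasome subunits, and their markers averaged 381 CPM in sum in DUX_DOX, 162 CPM in EV_DOX and 206 CPM in DUX. The 5 immunoproteasome genes averaged 87.0, 71.2 and 95.4 CPM in sum in these groups. The part of macrophages in these values was not tested.

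**Figure D2:**
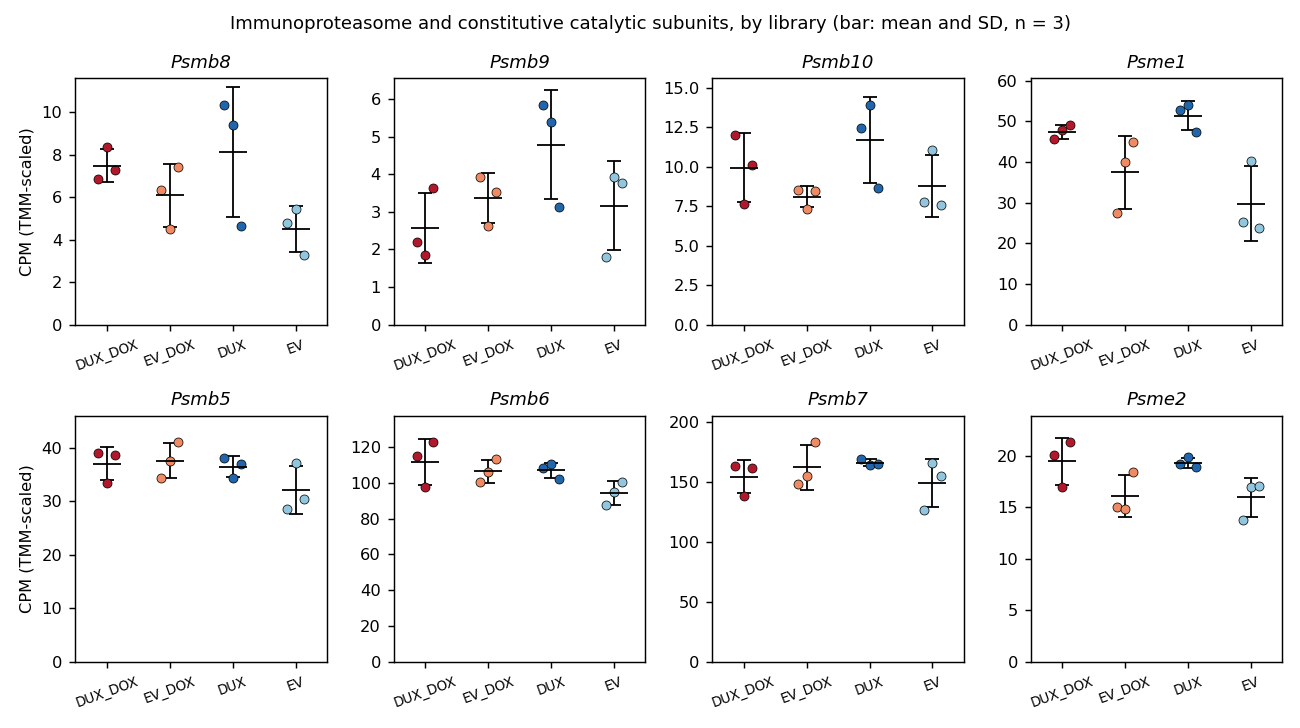
TMM-scaled CPM (y axis, from 0) of Psmb8, Psmb9, Psmb10 and PA28 with the constitutive subunits Psmb5, Psmb6 and Psmb7 in each of the 12 libraries; points are libraries, bars the mean and SD of 3. The immunoproteasome subunits lie between 1.80 and 13.9 CPM and their groups overlap between DUX_DOX and EV_DOX.

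The ratio of each inducible subunit to the constitutive one it replaces was compared per library in 12 tests, 3 ratios in 4 comparisons. Psmb8 mRNA was 20.5 ± 4.0% of Psmb5 in DUX_DOX and 16.2 ± 3.7% in EV_DOX (SD, n = 3 each; two-sided exact permutation test, p = 0.4). Psmb9 was 2.26 ± 0.60% of Psmb6 in DUX_DOX and 3.17 ± 0.72% in EV_DOX (exact p = 0.2). Psmb10 was 6.39 ± 0.94% of Psmb7 in DUX_DOX and 5.04 ± 0.63% in EV_DOX (exact p = 0.2). The lowest p of the 12 was 0.1, for Psmb9 over Psmb6 in DUX_DOX (2.26 ± 0.60%) against DUX (4.45 ± 1.23%), which is also the lowest that 3 against 3 libraries allow. The adjusted p was 0.6 or more in all 12. These are CPM, not scaled by length.

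Psme4, known as PA200, is an activator tied to histone turnover and lies at chr11:30771726-30880361 on the plus strand. It was the 1 proteasome gene that fell in DUX_DOX against EV_DOX, with 256, 248 and 235 CPM, against 384, 282 and 301 CPM in EV_DOX. The log2 fold change was -0.39 ± 0.13 (adjusted p = 0.0383) and the groups did not overlap. Without doxycycline it had 244, 257 and 266 CPM in DUX, against 410.3, 317 and 439 CPM in EV. Every library with AAV:Dux, on either chow, lay below every empty vector library. DUX against EV gave -0.60 ± 0.13, which ranked 19 by p among all genes but was not past the threshold (adjusted p = 0.179). The interaction of vector and chow was 0.22 ± 0.18 (adjusted p = 0.469). The call in DUX_DOX against EV_DOX was lost without EV_DOX 1 (log2 fold change -0.24, adjusted p = 0.148), without DUX_DOX 1, 2 or 3 (adjusted p = 0.0586, 0.0762 and 0.122) and without DUX 1, 2 or 3 (adjusted p = 0.0518, 0.054 and 0.0501), and with only the groups compared (0.0547). Psme3, the nuclear activator, had a log2 fold change of 0.18 and the inhibitor Psmf1 one of -0.08, neither called.

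Psmd5 was the 1 assembly factor of 7 that was called. It is a chaperone that holds ATPases of the base before they join the core, at chr2:34849734-34874968 on the minus strand. Psmd5 had 21.2, 18.2 and 19.9 CPM in DUX_DOX, against 14.8, 16.03 and 17.0 CPM in EV_DOX. The other groups were tight, at 15.9, 16.4 and 15.99 CPM in DUX and 16.5, 16.4 and 16.5 CPM in EV. The log2 fold change over EV_DOX was 0.31 ± 0.09 (adjusted p = 0.0239), and the groups did not overlap. The call was lost without DUX_DOX 1 (adjusted p = 0.0867), DUX_DOX 3 (0.0645), EV_DOX 1 (0.0733) or EV_DOX 2 (0.0753), with DESeq2 (0.0717) and with only the groups compared (0.0918). The other base chaperones, Psmd9 and Psmd10, lay at -0.04 and 0.04. The chaperones of the core, Psmg1 to Psmg4, lay between -0.12 and 0.21 and were not called.

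**Figure D3:**
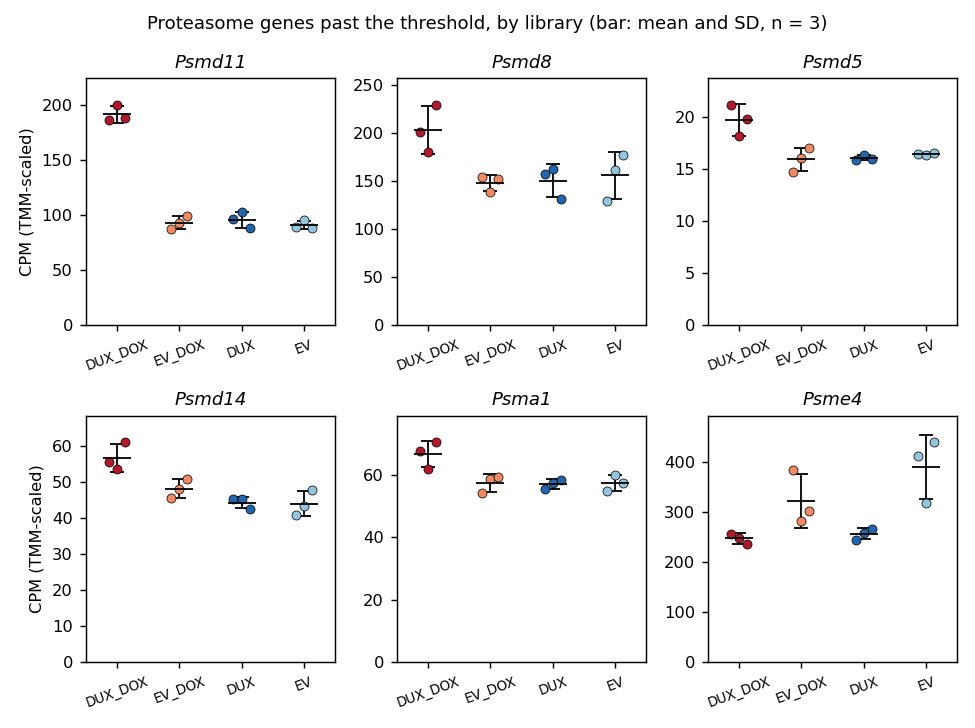
TMM-scaled CPM (y axis, from 0) in each of the 12 libraries for the 6 proteasome genes past the threshold in DUX_DOX against EV_DOX; points are libraries, bars the mean and SD of 3. Psmd11 has 187 to 200.4 CPM in DUX_DOX and 87.3 to 102.5 CPM in the other 3 groups, while Psme4 has 235 to 266 CPM in the groups with AAV:Dux and 282 to 439 CPM in those with the empty vector.

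Promoters of the proteasome genes were searched on both strands for 6 motifs. Of the 46 genes, 39 have RefSeq windows, 42 in all, beside 32851 windows of all genes. The antioxidant response element core TGACNNNGC, bound by Nfe2l1 and Nfe2l2 with small Maf proteins, was in 14.3% of proteasome windows and 12.4% of all windows. It was found in Psmb5, Psmb6, Psmc6, Psmd12, Psmd9 and Psme4, of which Psme4 was called, as lower. The NF-Y box CCAAT was in 31.0% and 37.4%, the heat shock pair GAANNTTC in 7.14% and 7.86%, and the AP-1 site TGANTCA in 4.76% and 7.81%. The interferon response core GAAANNGAA was in 16.7% and 8.56%. It was found in 7 of the 42 windows, those of Psmb3, Psmb4, Psmc2, Psmd4, Psmd9, Psme1 and Psmg4. Psme1 is the only immunoproteasome gene among these. The Dux core GATTNAATC was in 0% and 0.27%. These are descriptions of the windows, not of bound sites.

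The windows of Psma1 and Psmd14, called as higher in DUX_DOX against EV_DOX, and of Psme4, called as lower, are shown beside their motifs. The calls of Psma1 and Psmd14 held under 3 of 20 alternatives. Of the 39 genes with windows, 13 have the NF-Y box, and only Psma1 and Psmd14 among them were called in that comparison. Psma1 (chr7:114276067-114276366, minus strand) has 2 NF-Y boxes, 1 on each strand, and Psmd14 (chr2:61711444-61711743, plus strand) has 3, of which 2 on opposite strands overlap. Psme4 (chr11:30771525-30771824, plus strand) has 1 antioxidant core, read on the opposite strand. Capitals mark the motifs. Psmd5 and Psmd8 have none of the 6.
Psma1: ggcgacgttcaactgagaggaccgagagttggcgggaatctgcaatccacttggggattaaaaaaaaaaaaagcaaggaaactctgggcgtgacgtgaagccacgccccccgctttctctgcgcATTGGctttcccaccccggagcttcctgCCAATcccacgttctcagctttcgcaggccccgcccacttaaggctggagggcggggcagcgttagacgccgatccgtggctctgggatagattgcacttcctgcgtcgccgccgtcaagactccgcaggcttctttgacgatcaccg
Psmd14: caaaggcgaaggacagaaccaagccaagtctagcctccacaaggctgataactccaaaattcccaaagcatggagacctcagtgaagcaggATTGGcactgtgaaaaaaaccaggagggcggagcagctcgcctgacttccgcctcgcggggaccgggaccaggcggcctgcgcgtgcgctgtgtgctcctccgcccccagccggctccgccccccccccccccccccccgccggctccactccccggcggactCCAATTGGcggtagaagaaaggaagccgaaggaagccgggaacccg
Psme4: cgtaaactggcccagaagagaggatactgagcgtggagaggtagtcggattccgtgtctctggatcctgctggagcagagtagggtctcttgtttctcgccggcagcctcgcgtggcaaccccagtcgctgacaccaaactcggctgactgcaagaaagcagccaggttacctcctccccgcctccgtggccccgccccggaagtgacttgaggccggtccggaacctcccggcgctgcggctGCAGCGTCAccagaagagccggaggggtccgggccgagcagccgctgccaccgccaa

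The comparison of DUX_DOX with DUX asks what doxycycline changed in muscles that carry AAV:Dux, and it shares the DUX_DOX libraries with the comparison above. Here 6 of 46 genes were higher and 1 was lower, 13.0% and 2.17%, against 16.5% and 13.1% of all genes. The median log2 fold change was 0.06, against 0.01 over all genes. Groups did not overlap for 11 genes that were higher (23.9%, against 26% of all genes) and 3 that were lower (6.52%, against 22.6%). The higher genes were Psmd11, Psmd14, Psmd8, Psmd5, Psmc2 and Psma1, with Psmb9 lower.

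Psmd11 had a log2 fold change of 1.00 ± 0.08 over DUX (adjusted p = 8.18e-07) and Psmd14 of 0.36 ± 0.08 (adjusted p = 0.00525), and both were called under all 20 alternatives. Psmd8 stood at 0.44 ± 0.12 (adjusted p = 0.0166) and lost the call without DUX_DOX 3 or DUX 3 (adjusted p = 0.0817 and 0.0793). Psmd5 stood at 0.29 ± 0.09 (adjusted p = 0.0272) and lost it without DUX_DOX 1 or 3 or any DUX library (adjusted p of 0.062 to 0.0955) and with DESeq2 (0.0828). Psmc2, an ATPase of the base, had 100.9, 98.8 and 92.6 CPM in DUX, below all DUX_DOX values, and stood at 0.26 ± 0.09 (adjusted p = 0.0346). Its call was lost without DUX_DOX 1 or 3, EV_DOX 2 or any DUX library (adjusted p of 0.0604 to 0.123). Psma1 stood at 0.23 ± 0.08 (adjusted p = 0.036), with the call lost under the same 6 omissions (adjusted p of 0.0652 to 0.124). It was also lost with median-ratio factors (0.0511), upper-quartile factors (0.0509), DESeq2 (0.0649) and only the groups compared (0.0544). Psmb9 was lower, at -0.90 ± 0.32 (adjusted p = 0.049), and its DUX_DOX and DUX values overlapped. Its call was lost without DUX_DOX 1 or 2, EV_DOX 3, DUX 1 or 2, or EV 3 (adjusted p of 0.0524 to 0.169), with limma-voom (0.057) and with the replicate block (0.0684).

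The interaction asks whether the difference between the vectors on doxycycline, DUX_DOX minus EV_DOX, exceeded that on normal chow, DUX minus EV. Psmd11 alone was called, with an interaction of 0.97 ± 0.11 on the log2 scale (adjusted p = 0.000114), called under all 19 alternatives at 0.91 to 1.02. That is 1 of 46 genes higher and 0 lower, 2.17% and 0%, against 6.97% and 3.43% of all genes. Psmd8 stood at 0.51 ± 0.18 (adjusted p = 0.0756) and passed the threshold without EV 1 (adjusted p = 0.0322). Without EV 2, Psme1 was called as lower. Psmd5, Psmd14 and Psma1 lay between 0.22 and 0.34 and were not called. Most members lay the other way, with 30 of 46 below 0 and a median of -0.07, against 6287 of 12751 genes and a median of 0.01. All 5 immunoproteasome genes were below 0 and none was called, with Psmb9 at -0.99 ± 0.46 (adjusted p = 0.183) and Psmb8 at -0.55. Psmb10 stood at -0.12, Psme1 at -0.45 and Psme2 at -0.004.

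No proteasome gene was called by edgeR for doxycycline without AAV:Dux or for AAV:Dux without doxycycline. In EV_DOX against EV, 0 of 46 were called in either direction, against 0.0392% of all genes higher and 0% lower. An unadjusted p under 0.05 was seen for 2 of the 46 and for 999 of all 12751 genes. The log2 fold changes ran from -0.27 for Psme4 to 0.56 for Psmg4. Of the 46, 39 lay above 0 with a median of 0.09, against 6239 of 12751 genes and a median of -0.004. DUX against EV likewise had 0 of 46 called by edgeR, against 0% of all genes in both directions. Here 8 of the 46 and 2012 of all 12751 genes had an unadjusted p under 0.05. Of the 46 genes, 39 lay above 0 in DUX against EV, with a median of 0.12, against 6405 of 12751 genes and a median of 0.001. There DESeq2 called Psme1 as higher and Psme4 as lower, as did edgeR without EV 2. Over all genes, DESeq2 called 60 higher and 93 lower there, and edgeR without EV 2 called 68 higher and 50 lower. Psmb8 had the highest fitted value in that comparison, 0.85 ± 0.28 (adjusted p = 0.216), and Psme1 stood at 0.79 ± 0.19 (adjusted p = 0.192).

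Across members, mRNA per kilobase of transcript spanned a wide range. In DUX_DOX it ran from 1.90 CPM per kilobase for Psmb9 to 140 for Psmb6, and in EV_DOX from 2.49 for Psmb9 to 140 for Psmb7. Core and regulator genes had medians of 62.5 and 61.5 CPM per kilobase in DUX_DOX and 60.7 and 57.5 in EV_DOX. Assembly chaperones had a median of 6.09 in DUX_DOX and 5.71 in EV_DOX, and the 5 immunoproteasome genes one of 7.58 in DUX_DOX and 6.19 in EV_DOX. Summed over the lid, the CPM were 945, 895 and 994 in DUX_DOX, against 717, 771 and 812 in EV_DOX, and over the 14 core genes 1109, 972 and 1146 in DUX_DOX, against 917, 1034 and 1128 in EV_DOX. The lid sums did not overlap and the core sums did. With Psmd11 left out, the lid sums overlapped as well, at 695 to 806 CPM in DUX_DOX and 629.8 to 713 CPM in EV_DOX.

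The lists below hold genes that work with the proteasome; all genes tested had a median of -0.01 in the same comparison, with 14.9% higher and 10.3% lower, and each count of genes in a list is to be read against these shares. Ubb, which encodes ubiquitin, rose and had 402.5, 374 and 355 CPM in DUX_DOX, against 213, 271 and 259 CPM in EV_DOX (log2 fold change 0.61, adjusted p = 0.00117). The activating enzyme Uba6 stood at 0.25 (adjusted p = 0.158), and 2 of 5 genes of that list were higher and 0 lower, with a median of 0.25, against 14.9% and 10.3% of all genes. Of 15 shuttle factors and cofactors of the unfoldase Vcp, 4 were higher and 0 lower (14.9% and 10.3% of all genes), with a median of 0.03. Ubqln1, which carries ubiquitin chains to the proteasome, had 92.9, 115 and 103 CPM in DUX_DOX, against 63.7, 67.8 and 67.2 CPM in EV_DOX (0.65, adjusted p = 7.89e-05). Ubxn4, a Vcp partner at the endoplasmic reticulum, stood at 0.52 (adjusted p = 0.000422) and Ubqln2 at 0.56 (adjusted p = 0.0101). Vcp itself stood at -0.08 and was not called.

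Among 13 factors that bind the proteasome, 3 were higher and 3 lower, with a median of -0.02, beside 14.9% and 10.3% of all genes. Zfand2a, an arsenite-inducible protein that docks on the regulator, had 26.6, 31.0 and 29.8 CPM in DUX_DOX, against 10.4, 12.5 and 12.8 CPM in EV_DOX (1.29, adjusted p = 1.11e-06), and it too had an interaction call (1.38, adjusted p = 8e-05). Txnl1, a thioredoxin-like protein of the regulator, stood at 0.35 (adjusted p = 0.00351) and the ubiquitin receptor Adrm1 at 0.31 (adjusted p = 0.0237). AI314180, now named Ecpas, which tethers the regulator to the core, was lower at -0.33 (adjusted p = 0.00538). Pomp, which matures the core, the lid subunit Shfm1 (now Sem1) and the deubiquitinases Usp14 and Uchl5 lay between -0.06 and -0.02 and were not called.

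Nfe2l1 and Nfe2l2 are transcription factors that bind antioxidant elements with small Maf partners, and Nfe2l1 raises proteasome genes when the protease is inhibited. Of the 10 genes of that list 4 were higher and 1 lower, with a median of 0.06, where 14.9% and 10.3% of all genes were. Nfe2l1 had 585, 539 and 550.3 CPM in DUX_DOX and 645, 589 and 643 CPM in EV_DOX (-0.17, adjusted p = 0.155). Nfe2l2 was higher, at 45.8, 48.3 and 50.01 CPM in DUX_DOX, against 38.8, 38.5 and 37.2 CPM in EV_DOX (0.33, adjusted p = 0.00334). The small Maf genes Mafk and Maff stood at 0.73 (adjusted p = 4.37e-05) and 1.83 (adjusted p = 0.00045), and Maff was at 4.22 to 6.11 CPM in DUX_DOX against 0.73 to 1.72 CPM in EV_DOX. Ngly1, which trims sugars from Nfe2l1, was lower at -0.32 (adjusted p = 0.0197).

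The cytosolic chaperonin, another large complex, had 4 of 8 subunits higher and 0 lower (14.9% and 10.3% of all genes), with a median of 0.25 and all 8 above 0. Cct3 led it at 0.47 (adjusted p = 0.000296), with Cct2 at 0.29 (adjusted p = 0.0077) and Cct8 at 0.24 (adjusted p = 0.03). Of 7 ubiquitin ligases studied in muscle, 2 were higher and 2 lower (14.9% and 10.3% of all genes), with a median of -0.02. Fbxo32, the atrophy ligase atrogin-1, had 87.2, 142 and 112 CPM in DUX_DOX, against 255, 211 and 189 CPM in EV_DOX (-0.94, adjusted p = 0.00233). Fbxo21 stood at -0.40 (adjusted p = 0.0166) and Mdm2, the ligase of p53, at 0.30 (adjusted p = 0.0307). None of 11 genes of interferon response and antigen processing was called (median 0.13), with Tapbp at 0.13 (adjusted p = 0.365), Irf8 at 0.38 (adjusted p = 0.382) and Tap2 at 0.20 (adjusted p = 0.396). The differences between these lists and the proteasome genes were not tested.

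**Figure D4:**
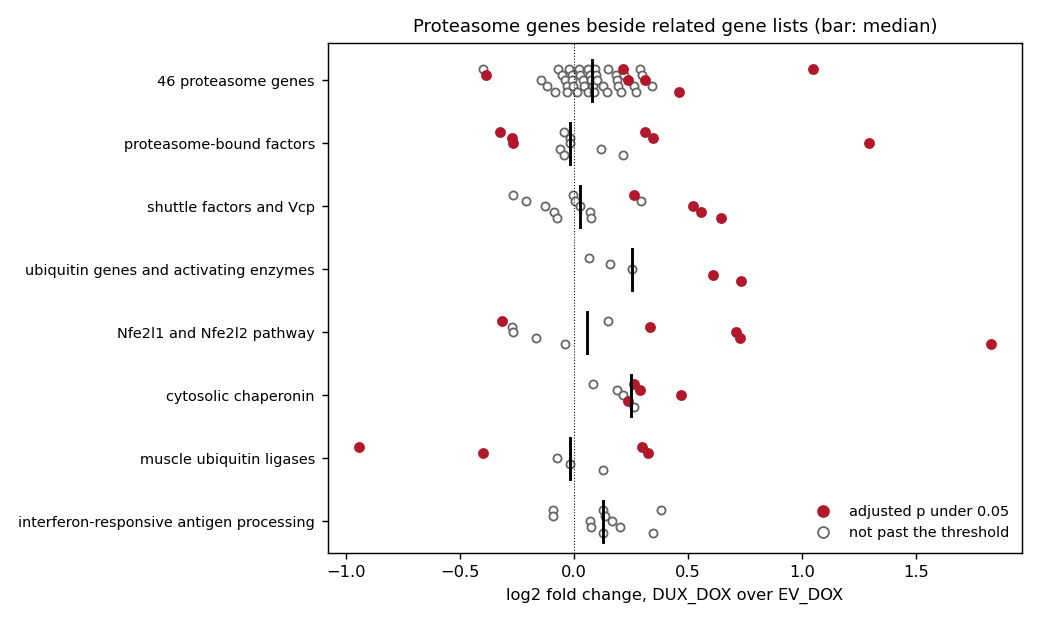
Log2 fold change in DUX_DOX over EV_DOX (x axis) of the 46 proteasome genes and of 7 related lists (rows); each point is a gene, filled red where the adjusted p is under 0.05, and the bar is the median, 0.08 for the proteasome genes and 0.25 for the chaperonin.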

How the data were processed

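The values are counts of reads per gene in whole tibialis anterior muscle. The authors deposited raw counts; per the submitters' processing notes, the tools were featureCounts, STAR and bcl2fastq (2.17.1.14), and the build was GRCm38. Other versions, the annotation and the strand setting were not stated. Libraries were made after poly-A selection, per the labels' protocols. Reads of overlapping genes on opposite strands could not be told apart, as at Psmb7, Psmb9, Psmc3, Psmc3ip, Psmd13 and Psme1, which share exon bases with another gene of the table.

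Counts were tested with edgeR's quasi-likelihood test (version 4.0.16, R 4.3.3) in all 12 libraries, 1 mean per group, with TMM factors of 0.916 to 1.12 and the default filter, which left 12751 genes. P-values were adjusted by Benjamini-Hochberg over all of them within each comparison, at a threshold of 0.05. Standard errors and 95% intervals (14.1 degrees of freedom) come from the fit, and no sample was dropped or imputed. CPM are TMM-scaled, and levels per kilobase use the principal transcript of GENCODE M21. The fit was tested on simulated data with known changes. The alternatives were other factors, no filter, DESeq2 1.42.0, limma-voom 3.58.1, only the groups compared, the replicate number as a block and leaving out each library.

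Members and lists were chosen with earlier results of these data known. Values in every library are given for up to 8 members past the threshold in DUX_DOX against EV_DOX, up to 5 in each other comparison, those that moved against the majority, the catalytic subunits, Psme1 and Psme2. Of each list the 3 genes with the smallest p are named, except those left out as below. Adrm1, Pomp, Shfm1, Usp14, Uchl5, Nfe2l1 and Nfe2l2 are always named. Other list genes, the neighbours of Psmd11 and the Dux motif were chosen after values were seen. Dux itself was not analysed here, nor were protein sequences. Some genes of the lists are counted but not reported singly here.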

Additional observations from a re-analysis of the deposited data

Results flagged for a closer look

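Psmd11 is the proteasome gene whose difference between the vectors depended on the chow. DUX_DOX minus EV_DOX was 1.05 and DUX minus EV was 0.08 on the log2 scale, and the interaction was 0.971 (adjusted p = 0.000114, edgeR), with all 3 DUX_DOX libraries above the other 9.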

How the results depend on the processing

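In DUX_DOX against EV_DOX the 5 higher and 1 lower genes became 3 higher with median-ratio factors, upper-quartile factors, limma-voom and the replicate block, 2 with DESeq2, and 2 higher and 0 lower with only the groups compared or without both empty vector libraries numbered 1. Leaving out 1 library gave 1 to 4 higher and 0 to 1 lower. Over all genes, these omissions gave 1370 to 1970 higher and 739 to 1385 lower, against 1905 and 1319 in the main fit. In DUX_DOX against DUX, the 6 higher genes became 5 with median-ratio factors, upper-quartile factors or only the groups compared and 4 with DESeq2. There limma-voom and the replicate block gave 0 lower genes, and leaving out 1 library gave 2 to 7 higher and 0 to 1 lower. All genes then had 1556 to 2274 higher and 1123 to 1884 lower, against 2101 and 1671 in the main fit. The interaction had 2 higher without both empty vector libraries numbered 1, and 1 to 2 higher and 0 to 1 lower on leaving out 1 library. Over all genes, leaving out 1 library gave 619 to 1249 higher and 194 to 899 lower, against 889 and 437 in the main fit. DUX against EV had 1 higher and 1 lower with DESeq2, and 0 to 1 each way on leaving out 1 library. All genes had 60 higher and 93 lower with DESeq2, and 0 to 68 higher and 0 to 50 lower on leaving out 1 library. EV_DOX against EV had 0 calls throughout. With no filter, every count was the same as in the main fit.

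The replicate numbers are not stated to mark an animal, and correlations of same-numbered libraries were -0.112, 0.094 and 0.005 for DUX_DOX with EV_DOX, so the block is an alternative only; the interaction kept 1 call under it.

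The median log2 fold change of the 46 genes ran from 0.015 to 0.135 in DUX_DOX against EV_DOX, 0.003 to 0.088 in DUX_DOX against DUX, -0.117 to 0.014 in the interaction, 0.039 to 0.156 in EV_DOX against EV and 0.064 to 0.155 in DUX against EV on leaving out 1 library. The sign of small uncalled values was not stable. In DUX_DOX against DUX, Psme2 stood at -0.007, -0.01 and -0.008 with median-ratio factors, upper-quartile factors and DESeq2. On leaving out 1 library, DUX_DOX against DUX ran from -0.061 to 0.092 for Psme2, -0.02 to 0.081 for Psmb5, -0.011 to 0.143 for Psmb6 and -0.395 to 0.1 for Psmb8. DUX_DOX against EV_DOX ran from -0.085 to 0.044 for Psmb5, -0.004 to 0.149 for Psmb6 and -0.131 to 0.027 for Psmb7. Log2 ratios on leaving out 1 library ran, for Psmb8 over Psmb5, from 0.144 to 0.456 (DUX_DOX against EV_DOX), -0.431 to 0.132 (DUX_DOX against DUX), 0.023 to 0.403 (EV_DOX against EV) and 0.415 to 0.979 (DUX against EV). For Psmb9 over Psmb6 they ran from -0.704 to -0.328, -1.213 to -0.804, -0.334 to 0.168 and 0.137 to 0.695 in the same comparisons. For Psmb10 over Psmb7 they ran from 0.229 to 0.439, -0.319 to 0.026, -0.35 to -0.126 and 0.091 to 0.435. The lowest mean counts per library were those of Psmg3, Psmg4 and Psmb9, at 30.5, 37.0 and 45.2.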

Other observations

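Of the 4 genes of the table nearest to Psmd11 on chromosome 11, 1 was higher, 1 was lower and 2 were not called. Of all genes, 14.9% were higher and 10.3% lower, and whether the neighbours differ from that was not tested. Zfp207, 22882 bases away, was higher in DUX_DOX than in EV_DOX at a log2 fold change of 0.33 (adjusted p = 0.00387, edgeR), 5730455P16Rik, 50581 bases away, was lower at -0.57 (adjusted p = 0.000648), and Myo1d and Rhbdl3 stood at 0.13 and -0.11 and were not called. Psmc3ip, the recombination factor that carries the name only, had 2.59, 1.65 and 2.16 CPM in DUX_DOX and 1.31, 1.01 and 1.64 CPM in EV_DOX (0.68, adjusted p = 0.0657).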
